A study of Mus musculus with 16 samples.

Results

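Interferon-stimulated genes were followed in blood and in a tumour fraction of mice that carried subcutaneous Hepa1-6 tumours. Hepa1-6 is an established line of mouse liver tumour cells. The members are 36 listed genes, each read through its brightest probe, and probes were named by the RefSeq identifier on the array. Of the 36 genes, 33 had a named and tested probe, out of 12311 genes tested in all. Mx1, Mx2 and Xaf1 had none and are named only. Of the 33, the listing takes the Gbp genes, Irf1 and Igtp as interferon gamma type. Irgm1, of the family of Igtp, was added to them here, which makes 5 gamma type members (Gbp2, Gbp3, Irf1, Igtp and Irgm1) and 28 type I members.

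Per the labels, Hepa1-6 cells were placed under the skin of C57Bl/6 mice, and blood and tumours were taken 10 days later. The treatment text calls these mice athymic, the strain field does not, and both channels are labelled female; no age is given. The blood group (8 samples) is whole blood of these mice kept in RNAlater. The TIC group (8 samples) is the part of the mashed tumour that a density gradient enriched in infiltrating inflammatory cells, and its RNA was extracted with a different kit. Both groups were labelled with Cy5. The Cy3 channel of each of the 16 arrays carried blood RNA of untreated C57Bl/6 mice, called the reference below, with 1 dye orientation throughout. Both groups come from tumour-bearing mice, and the labels name no blood of untreated mice other than the reference. The labels do not say how many mice gave the reference RNA, and the ratio against 0 therefore leaves out the spread between untreated mice.

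Interferons are secreted proteins that cells release on sensing nucleic acids of microbes or damaged cells, or, for interferon gamma, on activation of T cells and natural killer cells. Type I interferons signal through Ifnar1 and Ifnar2 to a complex that holds Stat2 and Irf9 and binds the interferon-stimulated response element (ISRE) of target genes. Interferon gamma signals through Ifngr1 and Ifngr2 and acts on the gamma-activated site (GAS). The targets of both pathways overlap and are widely used as a readout of interferon action in blood and tumours. They include antiviral effectors, nucleic acid sensors, and the guanylate-binding proteins (Gbp) and immunity-related GTPases (Irgm1, Igtp) that act on intracellular pathogens.

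Promoter sequences from RefSeq (build GRCm38.p6) are shown for 6 members whose ratios differ most in kind, so that their ISRE and GAS letters can be compared. Each line gives the 150 bases before the annotated start, 5′ to 3′ on the strand of the gene. Capitals mark matches on either strand to the ISRE core (GAAA, any 2 bases, GAAA) or to the GAS core (TTCNNNGAA), and adjoining matches run together.
Isg15 (chr4:156200819-156200968, minus strand): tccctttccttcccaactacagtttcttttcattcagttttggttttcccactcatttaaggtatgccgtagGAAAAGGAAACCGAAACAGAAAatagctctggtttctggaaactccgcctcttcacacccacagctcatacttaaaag
Rsad2 (chr12:26456453-26456602, minus strand): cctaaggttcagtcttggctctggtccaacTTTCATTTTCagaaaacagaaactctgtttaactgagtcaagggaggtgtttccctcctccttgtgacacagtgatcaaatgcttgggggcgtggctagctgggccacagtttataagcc
Isg20 (chr7:78913274-78913423, plus strand): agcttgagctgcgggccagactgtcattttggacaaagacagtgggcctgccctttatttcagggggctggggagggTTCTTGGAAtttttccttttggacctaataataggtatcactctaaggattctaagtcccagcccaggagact
Irf1 (chr11:53769864-53770013, plus strand): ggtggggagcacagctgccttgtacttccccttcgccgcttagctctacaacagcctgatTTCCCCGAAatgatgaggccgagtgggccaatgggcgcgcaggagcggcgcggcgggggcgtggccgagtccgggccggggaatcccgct
Gbp2 (chr3:142620513-142620662, plus strand): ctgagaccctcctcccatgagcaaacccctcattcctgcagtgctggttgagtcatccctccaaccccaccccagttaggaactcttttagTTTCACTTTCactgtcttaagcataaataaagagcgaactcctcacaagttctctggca
Irgm1 (chr11:48871421-48871570, minus strand): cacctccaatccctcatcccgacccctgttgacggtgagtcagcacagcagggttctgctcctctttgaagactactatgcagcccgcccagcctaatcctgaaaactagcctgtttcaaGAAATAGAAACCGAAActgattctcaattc

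In the whole table, which gives 250 bases before and 50 bases after each start, 27 of the 36 members had a promoter. An ISRE core stood in a promoter of 15 of these 27 members, 4 of 5 of gamma type and 11 of 22 of type I. Over all genes of the table the share was 3.99%, and over single promoters 3.44%. A GAS core stood in 9 of 27 members, against 9.55% of all genes and 8.30% of single promoters. The Isg15 window held 3 overlapping ISRE cores that began 78, 72 and 66 bases before the start. Irgm1 held 2, at 30 and 24 bases, and Gbp2 held 1, at 59 bases. Rsad2 held 1 ISRE core at 120 bases. The Isg20 and Irf1 windows held a GAS core, at 73 and 90 bases, and no ISRE core. Thus the ISRE core was found on both sides of the results below, in Gbp2 and Irgm1 as in Isg15 and Rsad2. A match of letters is a description of the sequence, and binding was not measured.

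Values are log2 ratios of Cy5 over Cy3 after background correction and loess, which sets each array's ratios against those of probes of like brightness. A member was called when its change reached 2-fold and its limma p, adjusted by Benjamini-Hochberg over the whole table, was under 0.05. Before normalisation the 2 groups of arrays were not alike in brightness. The Cy5 signal above local background was higher in TIC than in blood by a median of 23.3-fold over the 5350 genes above background in Cy5 on all arrays, and by a median of 28.7-fold over the 33 members. These are unlike sets, since only 27 of the 33 members were above background in Cy5 on all 8 blood arrays. Spiked-in control RNA was brighter too, at a median log2 Cy5 of 13.6 on TIC arrays against 12.05 on blood arrays. The scanner program placed 51.1% to 65.8% of the Cy5 spots above background in TIC, against 24.8% to 36.3% in blood.

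The reference channel also differed, although the labels give it the same kind of RNA on all arrays. Of 8390 genes above background in Cy3 on all arrays, 26.1% were at least 2-fold brighter in Cy3 on TIC arrays with no overlap between the groups, and 0.799% were at least 2-fold dimmer. Among members above background in Cy3 on all arrays, 9 of 32 were brighter in this way. Without the 2-fold limit, 19 of 32 members and 52.0% of genes were brighter on all TIC arrays than on any blood array. Bst2, a membrane protein that tethers budding viruses, stood first, with a median Cy3 of 26.3 units on blood arrays and 1145 on TIC arrays, a 43.6-fold difference. Gbp2 rose 7.86-fold in Cy3, Zbp1 7.35-fold, Irf1 3.63-fold, Ifit3 3.40-fold, Ifi35 3.21-fold, Oas1a 2.99-fold, Oasl1 2.78-fold and Trim25 2.37-fold. Afp, a transcript of hepatoma cells, rose as well and went from a median Cy3 of 128 units to 3075. The cause was not tested. A TIC ratio of these 9 members is therefore set against a brighter reference than on the blood arrays.

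**Figure D1:**
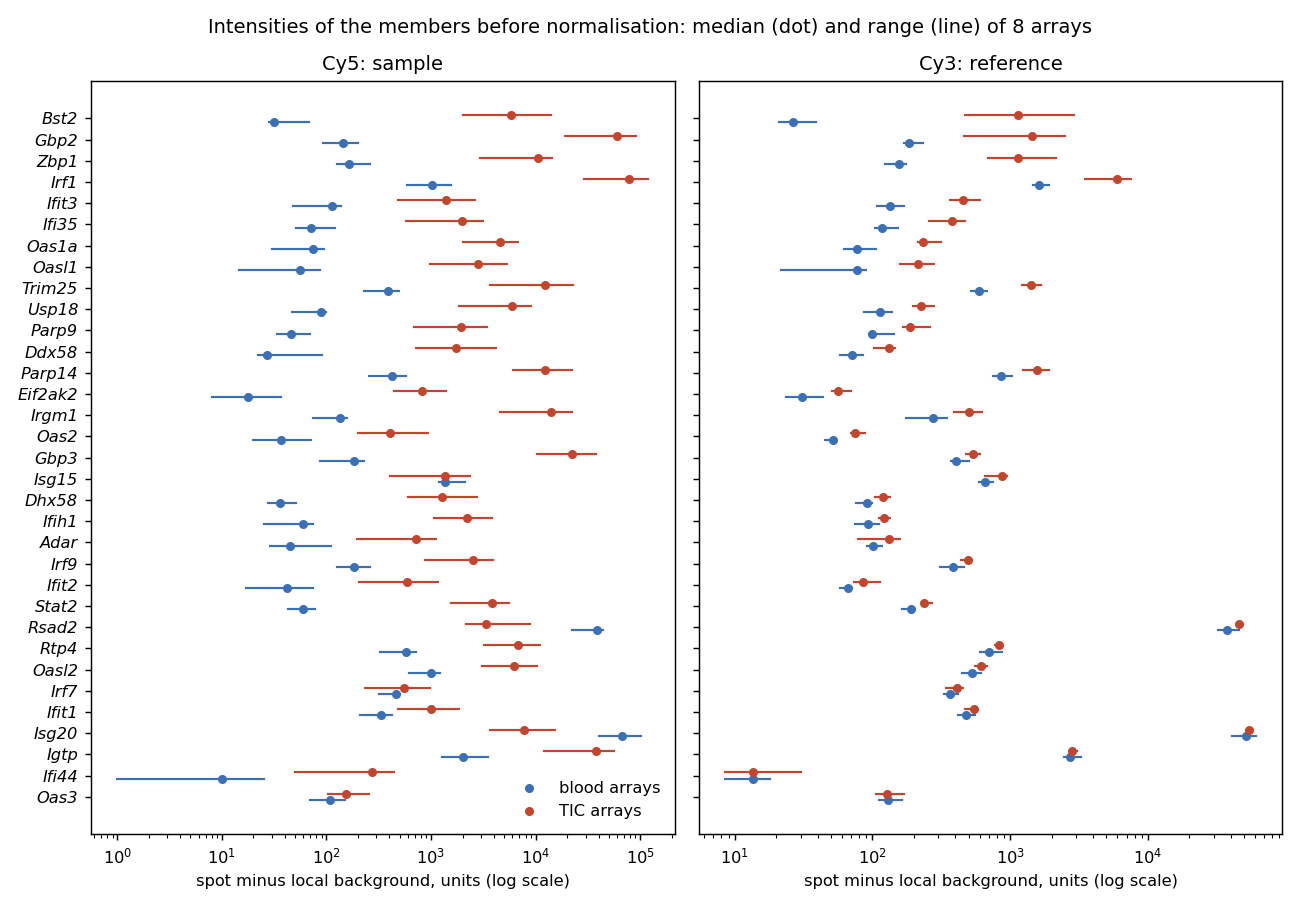
Cy5 signal of the sample (left) and Cy3 signal of the reference (right) for the 33 members, as spot minus local background in scanner units on a log scale; dots are medians and lines the range of 8 arrays, with values below 1 drawn at 1 (Ifi44 in blood). Cy5 is higher on TIC arrays for 30 members and lower for Isg15 (slightly), Isg20 and Rsad2, and Bst2, Gbp2, Zbp1 and Irf1 show the largest shifts in the reference.

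Because of these differences the direction of a TIC ratio depends on the scaling. The ratios are therefore given under 4 scalings: loess, median centring of each array without loess, centring on the spike-in controls, and the Cy5 signal of TIC against the mean Cy3 of the blood arrays with both centred on the spike-ins. The last was added after the data were seen. The median TIC ratio of all tested genes was 0.05, 1.2, 0.57 and 1.57 in that order, and values are also given relative to it. In bulk samples, fewer cells of a type and less RNA per cell cannot be told apart. Groups of close copies, such as Ifit3 and Ifit3b or Oas1a and Oas1g, may share signal on these probes, and this was not tested.

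Against the reference, 4 of 33 members were higher in TIC and 7 were lower, where 9.32% of all tested genes were higher and 10.1% lower (19.4% in either direction). Median centring gave 26 higher and 2 lower, spike-in centring 19 and 4, and the reference of the blood arrays 27 and 2. The counts over all tested genes moved likewise: 55.7% were higher and 3.31% lower under median centring, 37.7% and 9.11% under spike-in centring, and 62.3% and 4.33% against the reference of the blood arrays. Across the 4 scalings, Gbp2, Gbp3, Irgm1 and Usp18 were higher in each, and Isg20 and Rsad2 were lower in each. Relative to the median of all tested genes, all 5 gamma type members lay above it under each of the 4 scalings, and of the 28 type I members 11 lay above and 7 below it in each. Median and spike-in centring give the same values on this measure and are not separate checks of it. The 7 below were Isg15, Isg20, Irf7, Ifit1, Oas2, Oas3 and Rsad2.

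**Figure D2:**
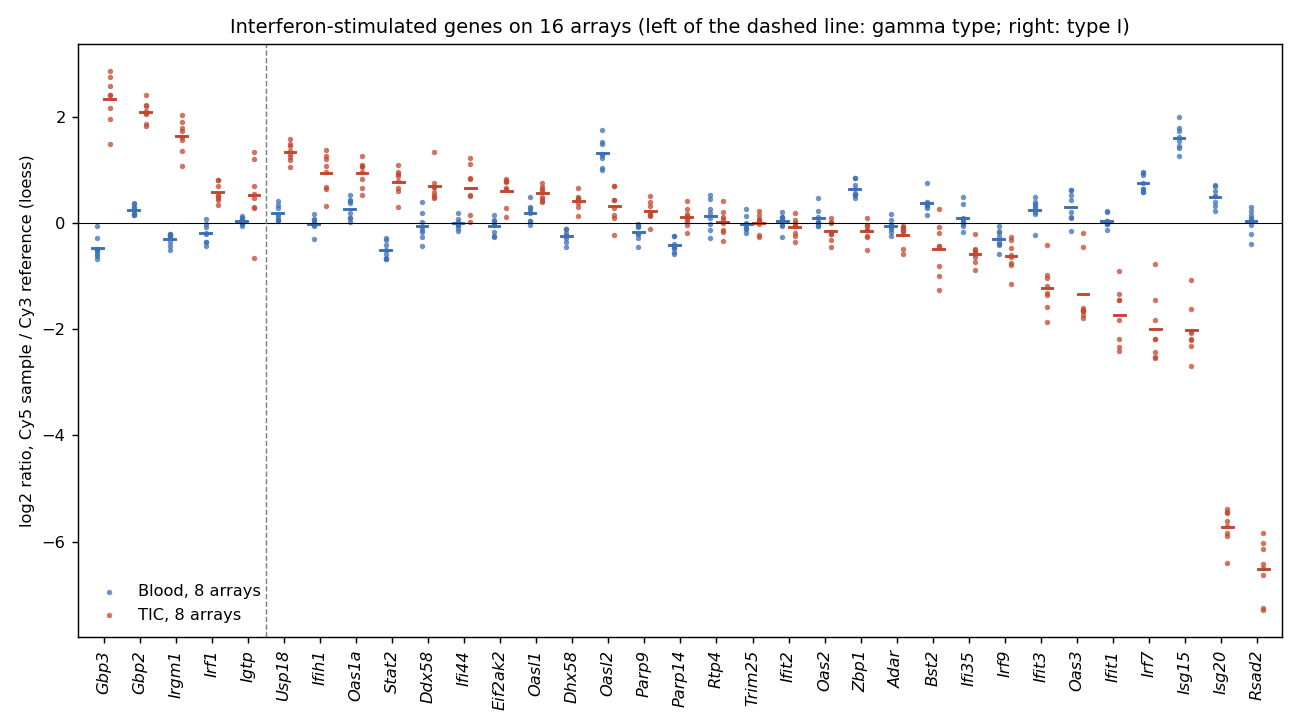
Log2 ratio of Cy5 over Cy3 after loess for each of the 33 members on 8 blood arrays (blue) and 8 TIC arrays (red), 1 point per array with a bar at the mean; gamma type members stand left of the dashed line. Gbp3, Gbp2 and Irgm1 lie above 1 on all TIC arrays, Isg20 and Rsad2 lie below -5, and Isg15 and Oasl2 lie above 1 on all blood arrays.

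Among the gamma type members, the GTPases Gbp2, Gbp3 and Irgm1 rose in TIC against the reference, while Irf1 and Igtp stayed under 2-fold. Gbp2, a guanylate-binding protein that coats vacuoles of pathogens, ranged from 1.83 to 2.41 on TIC arrays with a median of 2.10, and from 0.15 to 0.38 on blood arrays with a median of 0.25. The groups did not overlap. Its mean TIC ratio was 2.10 (SE 0.07, n = 8 arrays, limma adjusted p = 2.92e-09), and the difference between the groups was 1.85 (SE 0.08, limma adjusted p = 3.09e-13). Its Cy5 signal had a median of 143 units in blood and 60232 in TIC.

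Gbp3, of the same family, ranged from 1.5 to 2.88 in TIC (median 2.42) and from -0.68 to -0.05 in blood (median -0.52). It was above 0 on all TIC arrays and below 0 on all blood arrays. Its mean was 2.34 in TIC (SE 0.14, limma adjusted p = 2.77e-07, n = 8 arrays) and -0.46 in blood (SE 0.06, limma adjusted p = 1.51e-05, n = 8 arrays), the latter under 2-fold. The difference of 2.80 (SE 0.16, limma adjusted p = 3.02e-11) was the largest rise among the members after loess. In the scaled Cy5 signal given below, Gbp2 rose more (3.97 against 2.53). The reference signal of Gbp3 was 402.5 units on blood arrays and 533 on TIC arrays, while its Cy5 signal went from 183 to 22451 units.

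Irgm1, an immunity-related GTPase with a part in autophagy, ranged from 1.08 to 2.04 in TIC (median 1.69) and from -0.51 to -0.20 in blood (median -0.24). The groups did not overlap. The TIC mean was 1.64 (SE 0.10, limma adjusted p = 3.21e-07, n = 8 arrays) and the difference 1.94 (SE 0.11, limma adjusted p = 3.11e-11). A second Irgm1 probe gave 1.45 in TIC.

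Irf1, a transcription factor of interferon targets whose promoter is printed above, ranged from 0.35 to 0.82 in TIC (median 0.53) and from -0.42 to 0.08 in blood (median -0.19). The groups did not overlap, but the difference of 0.77 (SE 0.09, limma adjusted p = 4.05e-07) was under 2-fold. Its reference signal was 3.63-fold higher on TIC arrays, and under the other 3 scalings its TIC ratio was 2.82, 2.18 and 4.22. Igtp, another immunity-related GTPase, ranged from -0.66 to 1.35 in TIC (median 0.52) and from -0.05 to 0.14 in blood (median 0.05), so the groups overlapped. Its TIC mean of 0.53 (SE 0.19, limma adjusted p = 0.0282) did not reach 2-fold, and sample 896 lay below 0. Under the other 3 scalings it was 2.72, 2.08 and 2.39. The median of all tested genes under these scalings was 1.2, 0.57 and 1.57, which also applies to the values of Irf1.

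In the Isg15 system, Isg15 and its protease moved in opposite directions in TIC. Isg15, a ubiquitin-like modifier, ranged from 1.28 to 2.0 in blood (median 1.59) and from -2.68 to -1.07 in TIC (median -2.12). All blood arrays were above the reference and all TIC arrays below it. The blood mean was 1.61 (SE 0.07, limma adjusted p = 1.42e-10, n = 8 arrays), the TIC mean -2.02 (SE 0.15, limma adjusted p = 1.48e-06, n = 8 arrays) and the difference -3.63 (SE 0.17, limma adjusted p = 2.39e-12). Isg15 thereby had the largest rise of any member in blood, and 2 members in all were called there.

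Before normalisation, the Cy5 signal of Isg15 was nearly the same in the groups, with a median of 1364 units in blood and 1356 in TIC. For comparison, 26 of the 33 members, and 71.8% of the 5350 genes above background in Cy5 on all arrays, were at least 10-fold brighter in TIC. The sets are unlike, since only 27 of the 33 members were above background in Cy5 on all 8 blood arrays. Under median centring, spike-in centring and the reference of the blood arrays the TIC ratio of Isg15 was -0.07, -0.70 and -0.16 and was not called, while relative to the median of all genes it was -1.27, -1.27 and -1.72. The difference between the groups was called under median centring (-1.04) and spike-in centring (-1.69) as well. In blood those centrings gave 0.97 and 0.99, just under 2-fold.

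Usp18, the protease that removes Isg15 from proteins and restrains the type I receptor, ranged from 1.06 to 1.59 in TIC (median 1.34) and from 0.04 to 0.43 in blood (median 0.16). It was above 0 on all 16 arrays and the groups did not overlap. The TIC mean was 1.34 (SE 0.06, limma adjusted p = 4.61e-08) and the difference 1.15 (SE 0.08, limma adjusted p = 5.93e-10). It was the type I member called higher under each of the 4 scalings.

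Isg20, a 3′ to 5′ exonuclease, and Rsad2 (viperin, an antiviral enzyme of the endoplasmic reticulum) fell furthest. Isg20 ranged from -6.41 to -5.38 in TIC (median -5.65) and from 0.23 to 0.72 in blood (median 0.51). Its TIC mean was -5.72 (SE 0.11, limma adjusted p = 9.35e-11, n = 8 arrays). Rsad2 ranged from -7.30 to -5.84 in TIC (median -6.46) and from -0.38 to 0.32 in blood (median 0.10). Its TIC mean was -6.51 (SE 0.16, limma adjusted p = 5.91e-10, n = 8 arrays).

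Both genes were bright in blood of tumour-bearing and of untreated mice. On the blood arrays no other member had a median above 2701 units in either channel. The Cy5 signal of Isg20 had a median of 66365 units in blood and 7822 in TIC, and that of Rsad2 38316 and 3363, while their reference signal differed by 1.06-fold and 1.21-fold. The other probes were also low in TIC, between -5.72 and -5.65 for Isg20 and between -6.51 and -5.02 for Rsad2. In blood the probes of Rsad2 disagreed: the brightest was at 0.04 (limma adjusted p = 0.672) and the others at 0.75 (limma adjusted p = 2.15e-07) and 0.50 (limma adjusted p = 0.00048). Their TIC ratios were -3.48 and -4.30 under median centring and -4.12 and -4.94 under spike-in centring. After loess, the erythroid markers fell by a like size in TIC, 6 of 6 tested with a median of -5.84. So did the platelet markers, 5 of 5 with a median of -5.10. The part of these cells in the fall of Isg20 and Rsad2 was not tested.

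The Ifit proteins bind viral RNA. Ifit1 ranged from -2.40 to -0.89 in TIC (median -1.64) and from -0.12 to 0.24 in blood (median 0.03), without overlap. Its difference between the groups was -1.78 (SE 0.18, limma adjusted p = 7.75e-08) after loess, but 0.69 under median centring and 0.037 under spike-in centring, where the median difference of all genes was 1.45 and 0.80. Relative to that median it was -0.76 under both. Ifit3 ranged from -1.86 to -0.40 in TIC (median -1.25) and from -0.22 to 0.49 in blood (median 0.31), and its difference of -1.47 (SE 0.16, limma adjusted p = 1.98e-07) became 0.91 and 0.25 (-0.55 relative to the median of all genes under both). The TIC ratio of Ifit1 was -1.73 after loess and 0.074, -0.56 and -0.13 under the other scalings, and that of Ifit3 was -1.21 and 0.62, -0.02 and 1.83. Ifit1 stayed below the median of all genes under each scaling. Ifit2 was not called, with TIC values from -0.35 to 0.20.

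The oligoadenylate synthetase family includes enzymes that make the second messenger that activates RNase L. In blood, Oasl2 rose on all 8 arrays, from 1.01 to 1.76 (median 1.29), with a mean of 1.33 (SE 0.07, limma adjusted p = 2.06e-09, n = 8 arrays). In TIC it ranged from -0.22 to 0.71 (median 0.37). The difference of -1.0 (SE 0.13, limma adjusted p = 2.92e-06) lay at the 2-fold limit, was called in 9 of 16 fits that left out 1 array, and turned to 1.73 under median centring and 1.07 under spike-in centring (0.27 relative to the median of all genes under both). In blood those centrings gave 0.67 and 0.69, under 2-fold.

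Oas3 ranged from -1.78 to -0.17 in TIC (median -1.65) and from -0.15 to 0.64 in blood (median 0.33). Its TIC mean was -1.33 (SE 0.19, limma adjusted p = 0.00019, n = 8 arrays). The 2 highest TIC values, -0.17 and -0.44, came from samples 897 and 898, where the background fit was shifted as described below. The other 6 samples lay between -1.78 and -1.59. The remaining genes of the oligoadenylate synthetase family were not called after loess: Oas1a was at 0.94 in TIC, Oasl1 at 0.57 and Oas2 at -0.15.

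On 4 arrays (samples 897 and 898 of TIC, 889 and 891 of blood), 1 to 12 spots with signal far below their local background raised the fitted background correction (the other 12 arrays had 0 to 2 such spots). The dimmest corrected Cy5 signals (first percentile) were 105.4 to 822 units there and 53.4 to 85.9 on the other 12 arrays, which pulls ratios of dim members toward 0. With those spots left out of the fit, Oas3 was at -1.63 in TIC, Irf7 at -2.31 and Ifih1 at 1.02, now called. Calls in TIC became 5 higher and 7 lower, and without the 4 arrays they were 6 higher and 7 lower. Both alternatives were added after the data were seen.

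Among the transcription factors, Irf7, the main inducer of interferon alpha genes, ranged from 0.59 to 0.97 in blood (median 0.71) and from -2.54 to -0.76 in TIC (median -2.19). All blood arrays were above and all TIC arrays below the reference. The blood mean of 0.76 (SE 0.05, limma adjusted p = 2.74e-08, n = 8 arrays) was under 2-fold. The TIC mean was -1.98 (SE 0.19, limma adjusted p = 9.56e-06, n = 8 arrays) and the difference -2.75 (SE 0.20, limma adjusted p = 1.4e-09). Under median centring the difference was -0.46 and was not called, and under spike-in centring it was -1.11 and was called.

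Stat2, a subunit of the complex that binds the ISRE, went the other way. It ranged from -0.68 to -0.27 in blood (median -0.54) and from 0.31 to 1.1 in TIC (median 0.85), and the difference of 1.30 (SE 0.10, limma adjusted p = 2.59e-09) was called under each scaling run. Its partner Irf9 was below the reference on all 16 arrays after loess, at -0.30 in blood and -0.62 in TIC, and was not called. Under median centring Irf9 was 1.34 in TIC, which is 0.13 relative to the median of all genes.

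The sensors of nucleic acids and their regulators were not called against the reference after loess: Ifih1 (0.95 in TIC), Ddx58 (0.70), Eif2ak2 (0.62), Dhx58 (0.42), Trim25 (0.01), Zbp1 (-0.15) and Adar (-0.22). Ifih1 and Ddx58 are cytosolic receptors of viral RNA, and each was above 0 on all 8 TIC arrays. Under median centring all 7 were called higher in TIC, as were 55.7% of all genes, so this is not read as a result about the sensors. A second Adar probe gave -1.15 and a second Trim25 probe -0.63 in TIC, so for these genes the probes disagreed.

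The other members of mixed function were not called after loess either: Ifi44 (0.66 in TIC), Parp9 (0.23), Parp14 (0.12), Rtp4 (0.03) and Ifi35 (-0.57), with a range of -0.41 to 0.14 in blood. Ifi44 did not rise clear of background in Cy5 in blood (0 of 8 arrays), and it was above background in the reference on 1 of 16 arrays. Its Cy5 signal in TIC was at least 1.58-fold that of blood.

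The difference between the groups (TIC minus blood) was called higher for 5 of 33 members and lower for 8, where 12.1% of tested genes were called higher and 11.8% lower (23.8% in either direction). Ratios did not overlap between the groups for 11 members that were higher and 10 that were lower in TIC, against 24.8% and 17.4% of all tested genes. The 5 higher were Gbp3, Irgm1, Gbp2, Stat2 and Usp18. The 8 lower were Rsad2 (-6.55), Isg20 (-6.22), Isg15, Irf7, Ifit1, Oas3 (-1.65), Ifit3 and Oasl2. Median centring gave 26 higher and 3 lower, and spike-in centring 22 and 4, where 59.9% and 45.7% of all tested genes were higher and 2.71% and 9.37% lower. The median difference was 0.02 over the 33 members and 0.08 over all tested genes.

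In blood against the reference, 2 of 33 members were higher and none was lower, where 0.504% of tested genes were called higher and 0.244% lower (limma; 0.747% in either direction). At an unadjusted p under 0.05 with no limit on size, 12 members were higher and 8 lower. Isg15 and Oasl2 were the 2. At an adjusted p under 0.05 alone the counts were also 12 and 8, against 20.8% and 28.9% of genes. Among the 12 were Irf7 at 0.76, Zbp1 at 0.65, Isg20 at 0.50 and Bst2 at 0.38. Among the 8 were Stat2 at -0.51, Gbp3 at -0.46 and Parp14 at -0.41, and these 3 passed 2-fold under median and spike-in centring, where no member was called higher (limma). Under these centrings 7.18% and 6.69% of all tested genes were lower and 0.0812% and 0.0975% higher. After loess, blood of the tumour-bearing mice also had higher neutrophil markers, 4 of 6 called with a median of 1.1. Its B cell markers were lower, 3 of 6 called with a median of -0.88. The part of these cells in the blood ratios was not tested.

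The median of the gamma type members lay above that of the type I members on all TIC arrays. The median ratio of the 5 gamma type members minus that of the 28 type I members was computed on each array. In TIC it ranged from 1.29 to 1.98 (median 1.69, SD 0.28, n = 8). In blood it ranged from -0.53 to 0.01 (median -0.24, SD 0.16, n = 8). The lowest TIC array lay above the highest blood array.

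After loess, 3 of 5 gamma type members were higher in TIC and none was lower (limma; 5 and 0 at an unadjusted p under 0.05), with a median of 1.64. Of 28 type I members 1 was higher and 7 were lower, with a median of -0.03. The shares of all tested genes were 9.32% higher and 10.1% lower. Median and spike-in centring shift all ratios of an array by a constant, so they give the same distance between the medians of the classes. In TIC it was 1.95. With Irgm1 counted as type I the distance was 1.33. The members share arrays and a reference channel, and no p is given for the classes.

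**Figure D3:**
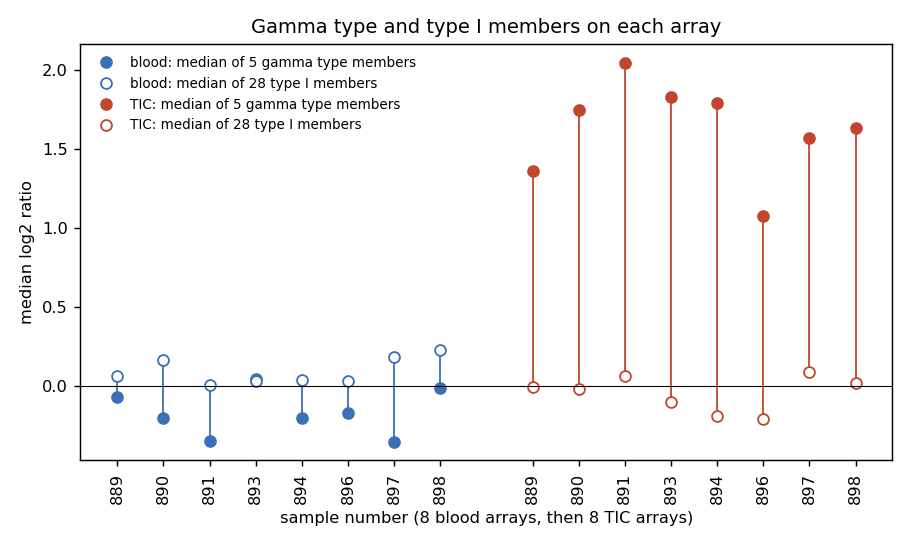
Median log2 ratio (loess) of the 5 gamma type members (filled circles) and of the 28 type I members (open circles) on each of 16 arrays, joined by a line; the x axis gives the sample number, blood first (blue) and TIC second (red). The line spans 1.29 to 1.98 upward on the 8 TIC arrays and -0.53 to 0.01 on the 8 blood arrays.

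The Cy5 signal was also compared as a single channel, after loess and scaling between arrays. Both steps draw on the Cy3 channel as well, so this comparison is not free of the reference. The Cy5 signal was called higher in TIC for 8 of 33 members and lower for 7. Of tested genes 18.0% were higher and 14.9% lower (32.9% in either direction). The 8 were Gbp2 (3.97), Gbp3 (2.53), Bst2 (2.52), Irf1 (2.28), Irgm1 (2.07), Usp18 (1.32), Oas1a (1.30) and Zbp1 (1.11). The 7 were Rsad2 (-5.94), Isg20 (-5.67), Isg15 (-4.03), Irf7 (-3.33), Ifit1 (-2.41), Oas3 (-2.28) and Oasl2 (-1.41). Quantile normalisation of Cy5 alone, without the reference, gave 9 higher and 7 lower. Setting each array's Cy5 to its 75th percentile gave 15 higher and 6 lower, and centring it on the spike-ins, added after the data were seen, gave 25 and 4. Of all tested genes 19.8% were higher and 16.2% lower with quantile normalisation of Cy5 alone. The shares were 28.1% and 34.6% at the 75th percentile, and 57.8% and 6.29% with the spike-ins. Isg15, Isg20, Irf7 and Rsad2 were lower in each of these.

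For Bst2 and Zbp1, singled out after their values were seen, the Cy5 signal scaled between arrays rose (2.52 and 1.11) while the ratio difference was negative. Before scaling, Cy5 was higher in TIC for 30 of 33 members, so the units below do not by themselves set these genes apart. Bst2 went from a median Cy5 of 31.8 units in blood to 5868 in TIC, yet its ratio difference was -0.86 (SE 0.17, limma adjusted p = 0.00024). Zbp1, a sensor of Z-form nucleic acid, went from 164 to 10458 units with a ratio difference of -0.80 (SE 0.08, limma adjusted p = 1.19e-07). Their reference signal rose with it, 43.6-fold and 7.35-fold. Set against the reference of the blood arrays, their TIC ratios were 5.17 and 4.19, which is 3.60 and 2.62 relative to the median of all genes.

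**Figure D4:**
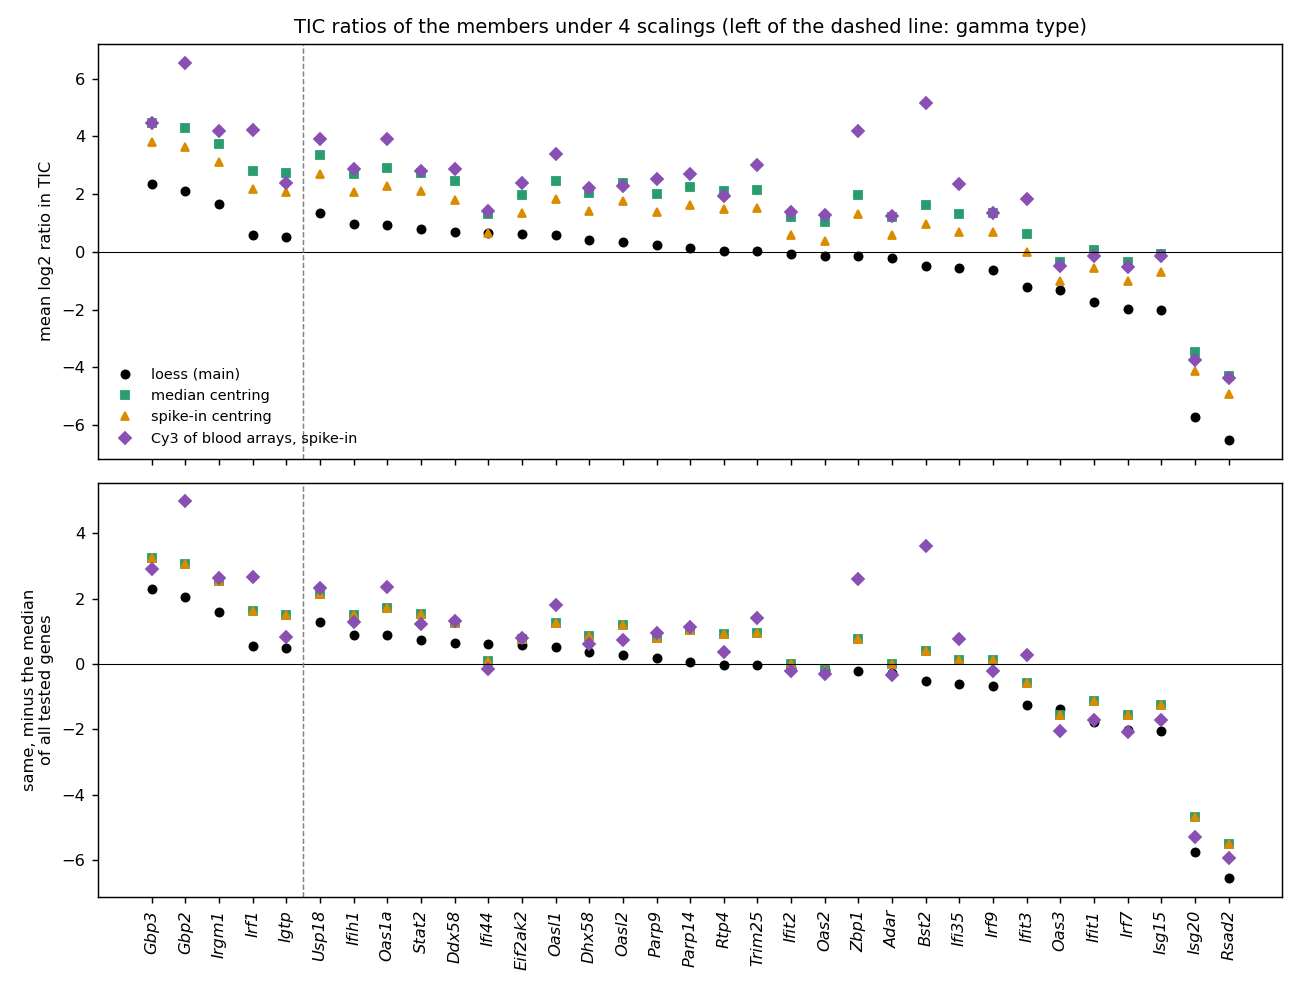
Mean log2 TIC ratio of the 33 members under 4 scalings (top) and the same minus the median of all tested genes (bottom); gamma type members stand left of the dashed line. The top panel shows most members above 0 under the scalings without loess, and the bottom panel shows Isg15, Irf7, Ifit1, Oas3, Isg20 and Rsad2 below the median of all genes under each scaling. In the bottom panel median and spike-in centring coincide by construction.

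Other genes of the pathway were taken from lists. For comparison with the counts below, 9.32% of all tested genes were called higher and 10.1% lower in TIC after loess. Of 6 tested ligands, none was called in the ratio in blood, TIC or the difference (limma). At an unadjusted p under 0.05, 2, 1 and 1 were higher and 0, 2 and 3 lower, in that order. In the Cy5 signal 1 of the 6 ligands was called higher in TIC and 1 lower (limma). Ifng, interferon gamma itself, went from a median Cy5 of 33.0 units in blood to 23568 in TIC. Its Cy5 difference of 4.59 was called, while its TIC ratio was -0.68, under 2-fold, and its reference signal rose from 38.5 to 5073 units. Against the reference of the blood arrays its TIC ratio was 6.89, where the median of all genes was 1.57.

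Of 11 receptors and kinases, 1 was higher in TIC and none was lower (4 and 3 at an unadjusted p under 0.05, limma). It was Ifngr1, the ligand-binding chain of the interferon gamma receptor, at 1.5 in TIC and -0.61 in blood. Of 12 sensors and adaptors, none was higher and 3 were lower in TIC (4 and 8 at an unadjusted p under 0.05, limma): Mavs (-2.17), the adaptor of Ifih1 and Ddx58, Tlr9 (-1.92), a receptor of unmethylated DNA, and Irf5 (-1.25). Under median centring Irf5 was at 0.67, Mavs at -0.32 and Tlr9 at -0.06, which is -0.53, -1.53 and -1.26 relative to the median of all genes.

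Of 9 inhibitors, 3 were higher in TIC: Tnfaip3 (2.43), Socs1 (1.39), which blocks Jak kinases, and Ptpn2 (1.30), a tyrosine phosphatase. These 3 were also higher under median and spike-in centring, where 9 of 9 and 6 of 9 inhibitors were called higher. Under these centrings 55.7% and 37.7% of all tested genes were called higher too. Socs3 was the 1 inhibitor called in blood, at 1.37, and it was 0.70 under median centring.

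Of 25 other gamma targets, 7 were higher and 2 lower in TIC with a median of 0.09, and of 27 other type I targets, 1 was higher and 1 lower with a median of -0.10. The largest changes among the gamma targets were Cxcl10 (3.85) and Cxcl9 (2.24), chemokines that attract T cells, and Iigp1 (3.61), an immunity-related GTPase. On blood arrays Cxcl9 and Cxcl10 stayed at background in Cy5 (0 of 8 arrays), and their Cy5 signal in TIC was at least 24.3-fold and at least 30.2-fold that of blood. Among the other type I targets, Lgals3bp was at 1.14 and Ifi27 at -1.09, and Ifi27 was at 1.07 under median centring, which is -0.13 relative to the median of all genes. Relative to the median of all genes, the median of the other gamma targets was 0.05 after loess, 1.08 under median and spike-in centring and 1.85 against the reference of the blood arrays. That of the other type I targets was -0.14, 0.15, 0.15 and -0.10. In the Cy5 signal 17 of 25 other gamma targets were higher and none was lower, against 2 and 5 of 27 other type I targets. The shares of all tested genes in the Cy5 signal were 18.0% higher and 14.9% lower.

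The label of the TIC fraction was set against cell type markers. The marker counts are those after loess, where 9.32% of all tested genes were called higher and 10.1% lower. Under median centring 55.7% were higher and 3.31% lower, so the side of a marker list can depend on the scaling. Counts under the other scalings are not given here. Of 8 tested monocyte and macrophage markers, 5 were higher than in the reference (median 1.04), and of 4 hepatoma markers 3 were (median 2.04). Afp had a Cy5 signal of 67254 to 342713 units in TIC, so tumour cell RNA was in the fraction. Of 6 B cell markers 6 were lower (median -2.84), of 6 neutrophil markers 3 were lower (median -1.02), and of 5 T cell markers none was called (limma; 0 higher and 2 lower at an unadjusted p under 0.05). Of 5 fibroblast markers 2 were higher (5 at adjusted p alone, median 0.96), and of 5 NK cell markers 1 was (median 0.11). Of 5 markers of plasmacytoid dendritic cells 1 was higher and 1 lower (median -0.32). Siglech, 1 of these, was above background in Cy5 on 0 of 8 blood and 5 of 8 TIC arrays and had a median Cy5 of 19.5 units in TIC. Which cells of the fraction carried the members' RNA was not tested.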

How the data were processed

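Deposited scanner files of 16 two-colour Agilent arrays gave the median intensity of each spot and its local background, per the file headers (Feature Extraction 10.5.1.1, where 9.1.3.1 is the version in the submitters' processing notes). The deposited log10 ratios of the same files, and the series' deposited values, which equal them, served as an alternative. Probe flags in the deposited files, which are 0 or 1, were used as they stand. With limma 3.58.1 (R 4.3.3), background was corrected by normexp (offset 50), ratios were normalised by loess, spots of 1 probe were averaged, and groups were tested with lmFit and eBayes. The 87 to 153 flagged spots per array were left out, and none was saturated. A probe was tested if well above background in Cy5 on at least 4 of 8 arrays of a group, or in Cy3 on at least 8 of 16. The 26509 tested probes hold 12311 genes, named through RefSeq tables (GRCm38.p6): of 41174 probes, 23374 had 1 symbol and 17800 none. A gene is its tested probe of highest mean intensity. Lists, members and tests were chosen with earlier results of these data known.

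Array values by sample are given for members called in a ratio comparison with all arrays of a group on 1 side of 0, or groups apart, and for the gamma type; other list genes are named if called, up to 3 per list. The fold bounds compare the brighter group with a floor set by the dimmest probe that passed background, from single channels open to dye bias. P-values measure the spread between these samples; the number of arrays limits their precision. Both groups carry the numbers 889 to 898. Files were read with the R package data.table (version 1.17.8) and pandas, promoters were searched in Python, and the fits were tested on simulated data.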

Additional observations from a re-analysis of the deposited data

Results flagged for a closer look

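In 3 of 66 groups of 8 arrays, 1 array stood apart from the other 7 by more than Dixon's 95% limit, which chance alone gives in about 1 of 20 groups. Ifit3 was at -0.22 in blood sample 893, where the other 7 lay between 0.19 and 0.49. Ddx58 was at 1.35 in TIC sample 894, against 0.47 to 0.76. Bst2 was at 0.77 in blood sample 898, against 0.17 to 0.40.

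The ratio differed between TIC and blood, by the test of the difference itself, for 13 of 33 members, beside 23.8% of all tested genes. The differences were -6.55 for Rsad2, -6.22 for Isg20, -3.63 for Isg15, -2.75 for Irf7, -1.78 for Ifit1, -1.65 for Oas3, -1.47 for Ifit3, -1.0 for Oasl2, 1.15 for Usp18, 1.30 for Stat2, 1.85 for Gbp2, 1.94 for Irgm1 and 2.80 for Gbp3.

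In the reference channel, which no comparison tests by itself, 9 of 32 members were at least 2-fold brighter on TIC arrays than on blood arrays without overlap. Among all genes above background in Cy3 on all arrays the share was 26.1%, so the count is not read as a result about the members. The folds were 43.6 for Bst2, 7.86 for Gbp2, 7.35 for Zbp1, 3.63 for Irf1, 3.40 for Ifit3, 3.21 for Ifi35, 2.99 for Oas1a, 2.78 for Oasl1 and 2.37 for Trim25. The cause was not tested.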

How the results depend on the processing

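Scaling moved the counts of called members most. In TIC against the reference 11 members were called after loess, 28 under median centring, 23 under spike-in centring and 29 against the reference of the blood arrays, beside 19.4%, 59.0%, 46.8% and 66.7% of all tested genes. For the difference 13 were called after loess, 29 and 26 under the 2 centrings, 20 after plain subtraction with a floor and 21 with the deposited ratios, beside 23.8%, 62.6%, 55.0%, 43.1% and 56.9% of genes. For the Cy5 signal 15 became 29 with spike-in centring, and 32.9% of genes became 64.1%. The gamma type minus type I distance in blood went from -0.26 to -0.52 under both centrings, which by construction give the same distance. In TIC it went from 1.67 to 1.33 with Irgm1 counted as type I. These signs reversed, under scalings that raise most genes: Ifit1 in TIC to 0.074 (median centring); Ifit3 in TIC to 0.62 (median centring) and 1.83 (reference of the blood arrays). In the difference Ifit1 went to 0.69 and 0.037, Ifit3 to 0.91 and 0.25, and Oasl2 to 1.73 and 1.07, under median and spike-in centring, where the median of all genes was 1.45 and 0.80; Ifit1 and Ifit3 stayed below it and Oasl2 did not. In the Cy5 signal Ifit1 went to 0.063 and Oasl2 to 1.2 with spike-in centring, both below the median of all genes (1.44). Leaving out 1 array at a time kept the difference of Oasl2 between -1.05 and -0.92, called in 9 of 16. The replicate block left 13 and 15 calls for the difference and the Cy5 signal; of the 8 shared sample numbers, 6 correlated above 0.1 (-0.18 to 0.22) and 3 of 8 samples matched their own number best, so the numbers were not taken as pairs. Each slide held 1 group, and slide and group cannot be told apart; with slide as a random block TIC kept 11 calls, and slides 3 and 4 alone gave 12 and 10.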
